A study of Mus musculus with 6 samples.

Results

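Transcripts of the cyclic AMP signalling machinery were measured in the pituitary gland of male mice labelled HFD or RD. The set was taken by gene symbol from the deposited count table. It holds the adenylyl cyclases, the phosphodiesterases, the subunits and inhibitors of protein kinase A (PKA), the A-kinase anchoring proteins, the RAP exchange factors, the Popeye domain genes, and the CREB transcription factors with their coactivators. In all, 74 of the 16736 rows matched, each on 1 row. The table holds no row named ICER, the name of short repressor forms made from the CREM gene.

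The comparison used 3 HFD libraries and 3 RD libraries of polyadenylated RNA from whole pituitary. All mice had fasted for 16 h and then fed for 4 h before the gland was taken. The labels do not spell out HFD or RD, give no age or strain, and do not say whether the libraries of a group came from separate animals. The p-values therefore rest on differences among libraries that may be technical. The title of the series sets the comparison in the context of obesity.

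Cyclic AMP is made from ATP by adenylyl cyclases, which are stimulated or inhibited by G proteins, and it is broken down by phosphodiesterases. It acts by releasing the catalytic subunits of PKA from their regulatory subunits, by activating the exchange factors EPAC1 and EPAC2, and by binding Popeye domain proteins. In the pituitary the pathway carries signals of hypothalamic hormones: growth hormone-releasing hormone and corticotropin-releasing hormone raise cyclic AMP, and dopamine and somatostatin lower it. PKA phosphorylates CREB, which with the CRTC coactivators drives cyclic AMP-responsive genes.

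Few of the cyclic AMP genes passed the test between HFD and RD pituitaries. Of the 74 genes, 68 had enough counts to be tested by edgeR's quasi-likelihood test, and 5 passed an adjusted p of 0.05 (called), which is 7.35% against 10.5% of all 13873 tested genes. AKAP6 and PDE4D rose (all genes called higher in HFD, 5.87%), while AKAP11, AKAP13 and PRKAR1B fell (all genes called lower, 4.61%). The median change of the 68 genes was -0.0022 on the log2(HFD/RD) scale, against -0.0023 for all tested genes, and the median size of a change was 0.189 against 0.165 on the same scale. No overlap between groups was seen in 26 of the 68 genes, 13 higher and 13 lower in HFD, or 38.2% against 32.5% of all tested genes. An unadjusted p under 0.05 was reached by 24 of the 68, or 35.3% against 26.5% of all tested genes. With other scalings the split of called genes was 1 higher and 3 lower (DESeq2 size factors), 5 and 3 (upper quartile), or 6 and 3 (library size only). Over all tested genes these scalings called 10.4%, 10.6% and 11.1%. Of those calls 54.6%, 63.8% and 72.5% were higher in HFD. Leaving out 1 library gave between 1 and 8 called genes, the lowest without HFD replicate 3. The share called over all tested genes then ran from 3.08% (without HFD replicate 3) to 10.9% (without RD replicate 1).

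The 63 tested genes that were not called are not thereby shown to be unchanged, but their intervals bound the change. For 43 of them the 95% interval of the fitted change lay within 1.5-fold in either direction, and for 52 within 2-fold. The remaining 11 were PDE10A, whose RD libraries were far apart, and 10 genes of low level (PKIB, POPDC2, POPDC3, ADCY8, ADCY10, PDE4C, PDE6B, PDE6C, PDE6G and PDE11A). Some of these 10 also had libraries far apart, such as PKIB (5.27 to 11.3 CPM in HFD), PDE11A (7 to 50 counts in RD) and POPDC3 (2 to 27 counts in RD). In bulk tissue fewer cells of a type and less RNA per cell cannot be told apart, which applies to every change given here.

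**Figure D1:**
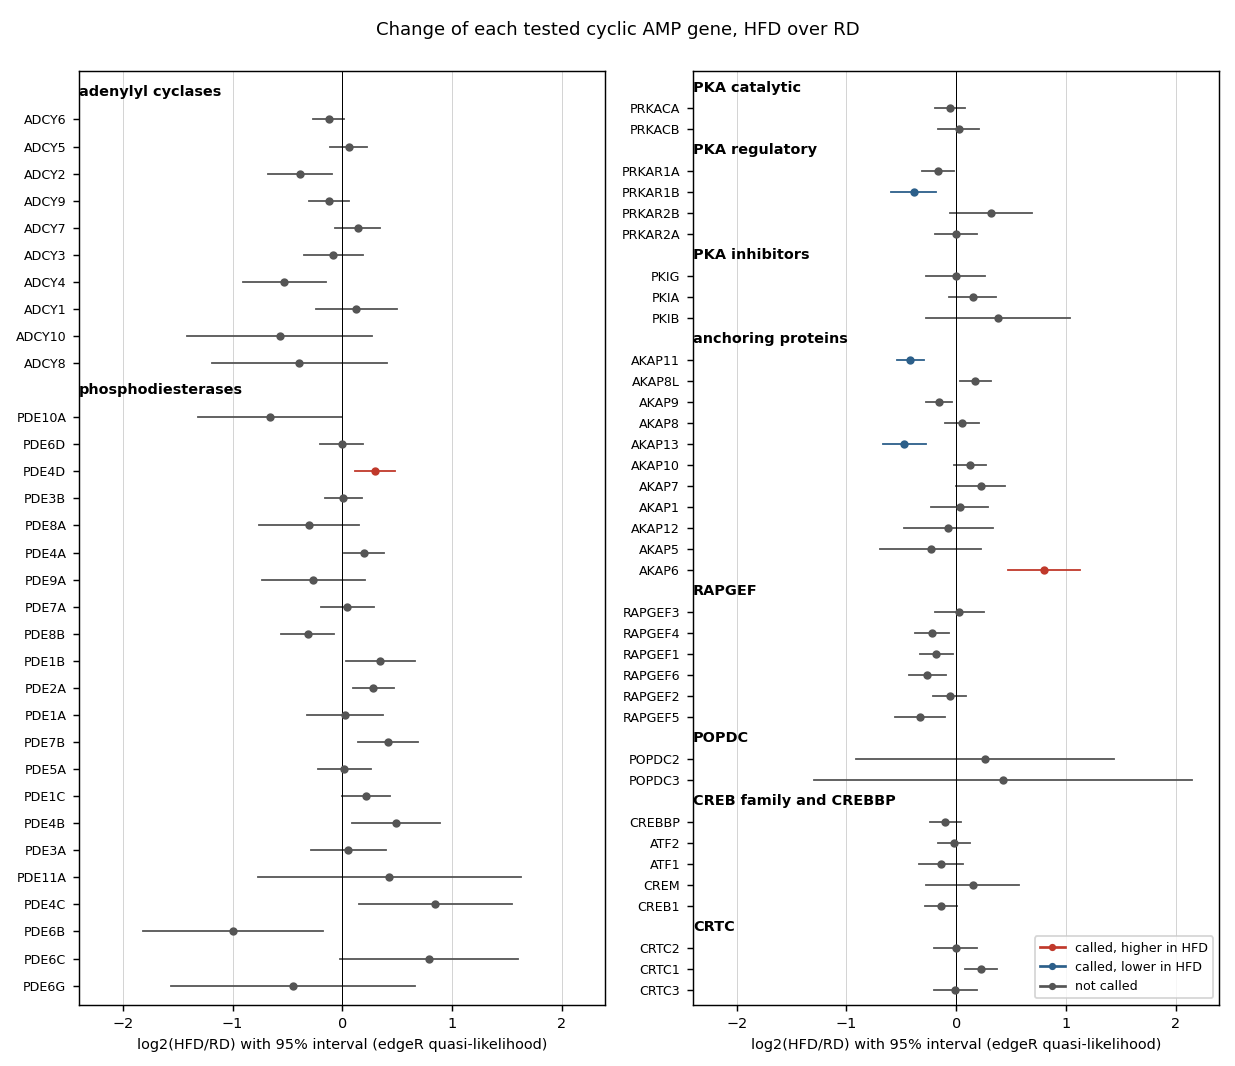
Change of each tested gene as log2(HFD/RD) on the horizontal axis, with its 95% interval, grouped by family and ordered by level within a family. AKAP6 and PDE4D (red) lie above 0, AKAP11, AKAP13 and PRKAR1B (blue) lie below it, and the 63 genes in grey were not called.

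Totals ranged from 14185372 to 14384933 counts in the HFD libraries and from 15702214 to 18111345 in the RD libraries. Levels are given as CPM scaled by TMM, edgeR's factor for library composition, and levels of different genes are compared only after division by exonic length (CPM per kb). The tissue label was checked against pituitary markers: GH1 stood between 36590 and 39530 CPM in HFD and between 58920 and 71590 CPM in RD, PRL between 9525 and 12140 CPM in HFD and between 13650 and 15150 CPM in RD, and POMC between 5792 and 13680 CPM in HFD and between 5526 and 9447 CPM in RD. RD replicate 3 stood apart from the other RD libraries, with 592 of 11585 genes of at least 5 CPM (5.11%) differing by 1.5-fold or more from the mean of the other RD libraries, against 1.04% to 2.52% for the other 5 libraries. Calls of the cyclic AMP genes below are given with the libraries whose removal ends them.

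Among the 10 adenylyl cyclases, ADCY6 and ADCY5, closely related enzymes that calcium inhibits, had the highest levels per kb. None of the 10 was called by edgeR. An unadjusted p under 0.05 (edgeR) was reached by 2 (ADCY2 and ADCY4), against 26.5% of all tested genes. DESeq2 called 1 (ADCY2), against 10.8% of all genes in that test. ADCY6 stood at 526, 470 and 482 CPM in HFD and at 547, 552 and 511 CPM in RD, and the groups overlapped. Its log2 change was -0.12 ± 0.06 (SE), with a 95% interval from -0.27 to 0.02 (adjusted p = 0.25, edgeR quasi-likelihood test). Per kb it averaged 72.7 in HFD and 79.2 in RD, and it made up 51.9% to 52.8% of the summed adenylyl cyclase level per kb in HFD and 51.6% to 53.7% in RD. ADCY5 averaged 27.9 CPM per kb in HFD and 26.8 in RD.

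Behind them came ADCY2, a cyclase that G protein beta-gamma subunits stimulate, and the widely expressed ADCY9, at 14.7 and 12.1 CPM per kb in HFD and 19.2 and 13.1 in RD. ADCY2 had 72.8, 61.9 and 51.2 CPM in HFD and 72.5, 78.6 and 90.9 CPM in RD. HFD replicate 1 lay above the lowest RD library, and the log2 change of -0.38 ± 0.13 missed the threshold (adjusted p = 0.094). ADCY4, at 5.33 ± 0.34 CPM in HFD and 7.68 ± 0.65 CPM in RD (SD, n = 3 each), was the only cyclase whose groups did not overlap, with a log2 change of -0.53 ± 0.17 (adjusted p = 0.077). The calcium-stimulated cyclase genes ADCY1 and ADCY8 had changes of 0.13 ± 0.17 and -0.39 ± 0.36, and ADCY10, the soluble cyclase that bicarbonate activates, of -0.57 ± 0.38. ADCY3 (-0.08 ± 0.12) shares 22.1% of its exonic length with Cenpo on the opposite strand, so its counts may hold reads of both genes. ADCY7 had a change of 0.14 ± 0.09. Summed per kb, the cyclases came to between 134 and 147 in HFD and between 146 and 152 in RD.

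**Figure D2:**
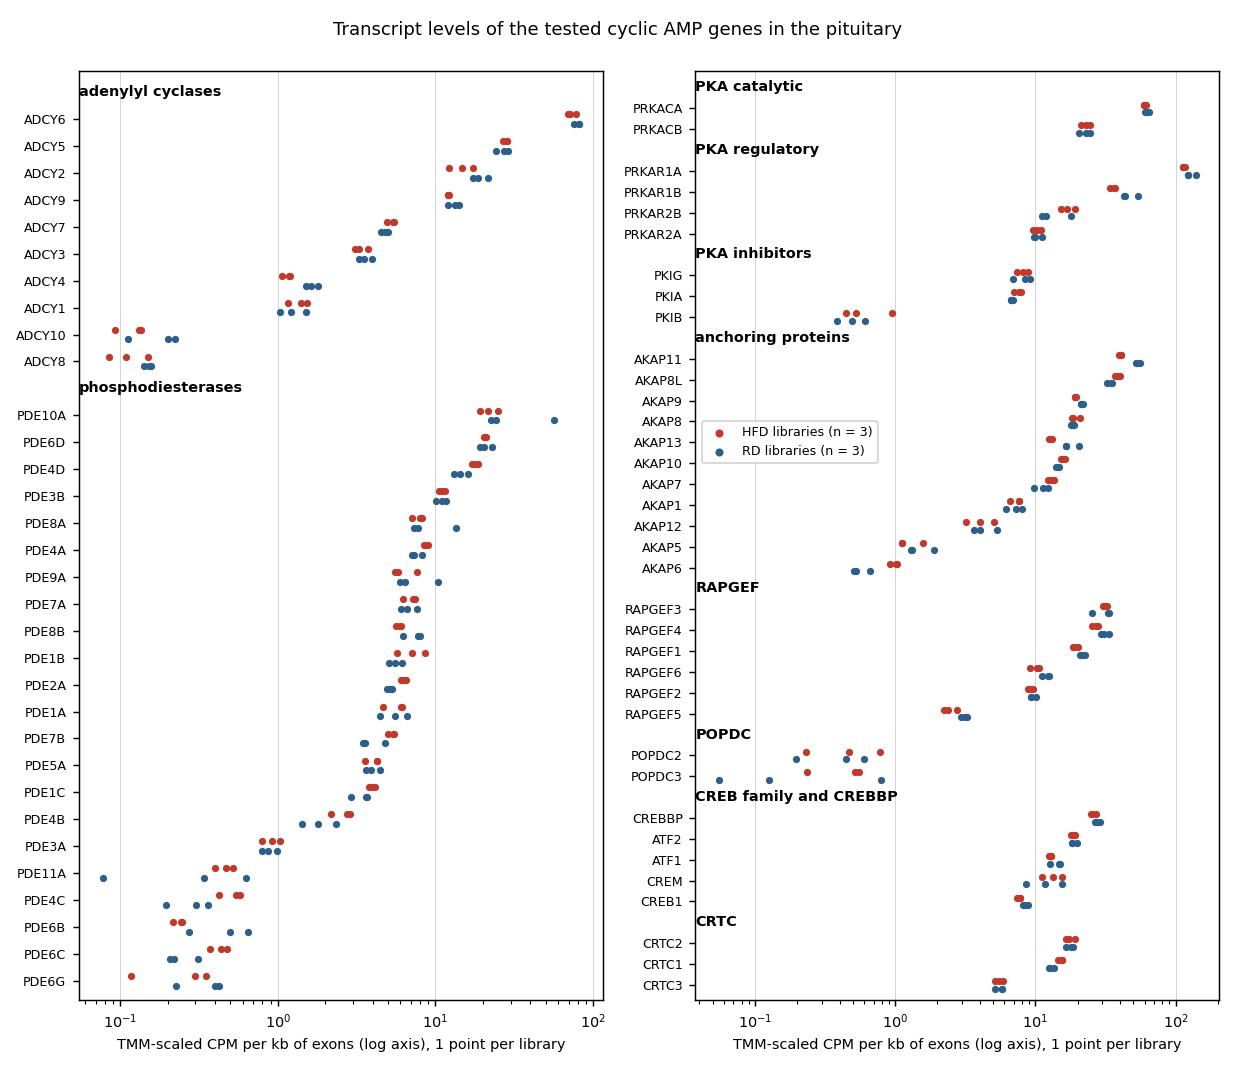
Level of each tested gene in each library, as TMM-scaled CPM per kb of exons on a log axis, with HFD libraries in red and RD libraries in blue. PRKAR1A, ADCY6 and PRKACA have the highest levels of their families, and the 3 HFD points of most genes lie among or beside the 3 RD points.

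The phosphodiesterases differ in what they hydrolyse: PDE4, PDE7 and PDE8 prefer cyclic AMP, PDE5, PDE6 and PDE9 prefer cyclic GMP, and PDE1, PDE2, PDE3, PDE10 and PDE11 take both. Of 24 genes, 22 were tested and PDE4D alone was called by edgeR, against 10.5% of all tested genes. An unadjusted p under 0.05 (edgeR) was reached by 10 of the 22, against 26.5% of all tested genes. DESeq2 called 2, against 10.8% of all genes in that test. The groups did not overlap in 7 genes higher and 2 lower in HFD, against 16.9% and 15.6% of all tested genes. PDE4D, which makes long and short enzyme forms that PKA and ERK regulate, had 224, 212 and 204 CPM in HFD and 193, 171 and 157 CPM in RD. All 3 HFD libraries lay above all 3 RD libraries. The log2 change was 0.30 ± 0.08, or 1.23-fold (95% interval 1.08 to 1.40-fold; adjusted p = 0.048, edgeR quasi-likelihood test). The call stood close to the threshold. It was lost without RD replicate 2 (0.118), RD replicate 3 (0.066), HFD replicate 1 (0.145), HFD replicate 2 (0.141) or HFD replicate 3 (0.114), and with DESeq2 size factors (0.052).

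The other PDE4 genes had positive changes as well, in the main scaling and in each of the 3 others, and were not called. PDE4A had 65.8, 64.5 and 68.4 CPM in HFD and 62.7, 56.2 and 54.2 CPM in RD, without overlap, and a log2 change of 0.20 ± 0.08 (adjusted p = 0.16). PDE4B had 23.0, 30.4 and 29.1 CPM in HFD and 24.7, 19.1 and 15.02 CPM in RD. HFD replicate 1 lay below RD replicate 1, and the change of 0.49 ± 0.18 had an adjusted p of 0.11 (edgeR). The adjusted p was 0.030 without RD replicate 1 and 0.10 to 0.31 without any other library. PDE4C was low, at 2.887 ± 0.467 CPM in HFD and 1.603 ± 0.467 CPM in RD (SD, n = 3 each), with a change of 0.85 ± 0.31 (adjusted p = 0.11). Summed per kb, the 4 genes came to 29.8, 29.5 and 29.3 in HFD and to 26.9, 23.7 and 21.7 in RD, so the HFD libraries lay above the RD libraries. PDE4D made up most of that sum, at 17.8 CPM per kb in HFD and 14.5 in RD.

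**Figure D3:**
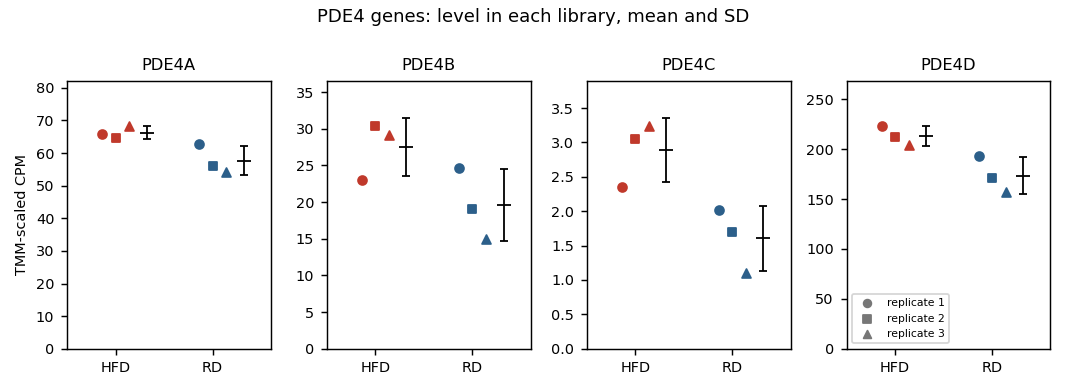
Level of PDE4A, PDE4B, PDE4C and PDE4D in each library (TMM-scaled CPM, axes from 0), with HFD on the left, RD on the right, a marker shape per replicate, and the mean ± SD beside the points. HFD points lie above RD points for PDE4A, PDE4C and PDE4D, and PDE4B overlaps at 23.0 and 24.7 CPM.

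Of the other cyclic AMP-specific enzymes, PDE7B had 61.8, 68.3 and 67.1 CPM in HFD and 44.5, 43.3 and 59.7 CPM in RD. The groups did not overlap, with RD replicate 3 nearest to the HFD range. Its change of 0.42 ± 0.12 missed the threshold (adjusted p = 0.059, edgeR), and without RD replicate 3 it was 0.58 (adjusted p = 0.0016). Without any other library the adjusted p was 0.098 to 0.18. PDE7B was also called by DESeq2 and with upper-quartile or library-size scaling. PDE7A stood at 53.8 ± 4.67 CPM in HFD and 52.1 ± 6.23 CPM in RD. PDE8B went the other way, at 34.6 ± 1.22 CPM in HFD and 43.1 ± 5.79 CPM in RD (SD, n = 3 each). Its change was -0.32 ± 0.11 without overlap (adjusted p = 0.094, edgeR). The adjusted p was 0.022 without RD replicate 1 and 0.17 to 0.22 without any other library.

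PDE10A, a dual enzyme known above all from striatal neurons, had the highest level per kb of the phosphodiesterases, and its value rests on 1 library. It stood at 319, 246 and 276 CPM in HFD and at 290, 312 and 726 CPM in RD. RD replicate 3 was 2.41 times the mean of the other RD libraries, and the other RD libraries lay within the HFD range. The log2 change of -0.66 ± 0.29 was not called (adjusted p = 0.19) and was -0.11 without RD replicate 3 (adjusted p = 0.53). PDE10A made up 15.5% to 19.97% of the phosphodiesterase level per kb in HFD, summed over 21 genes without PDE6D, PDE6G and PDE6H, which encode no catalytic subunit, against 36.0% in RD replicate 3 and 19.1% and 21.1% in the other RD libraries. PDE8A, between 28.6 and 33.2 CPM in HFD and at 54.6 CPM in RD replicate 3, and PDE9A, between 19.5 and 27.0 CPM in HFD and at 36.7 CPM in RD replicate 3, stood high in the same library. Without it their changes were 0.03 each, against -0.30 ± 0.21 and -0.26 ± 0.21 with it.

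**Figure D4:**
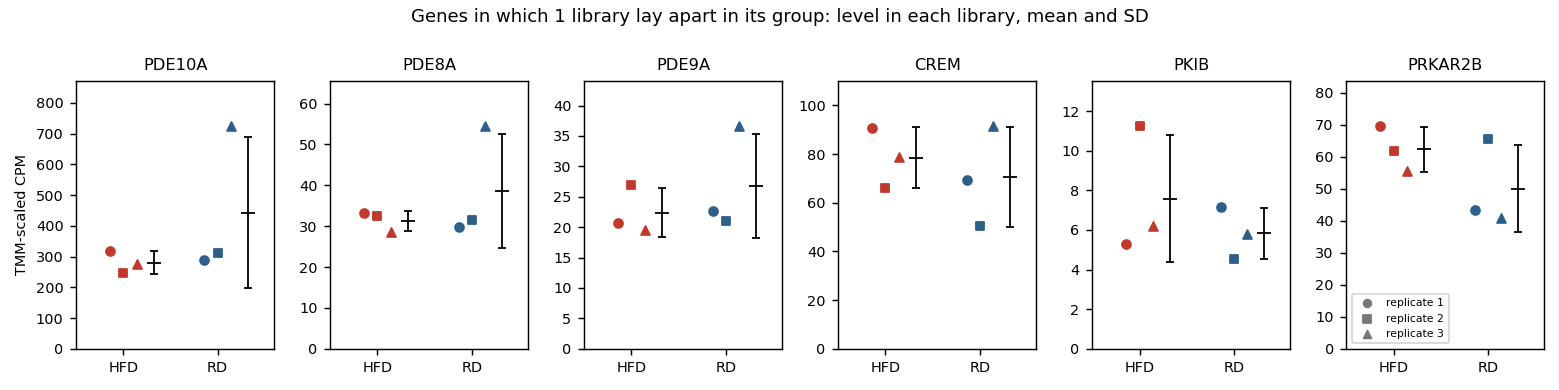
Genes of at least 5 CPM in which a library differed 1.5-fold or more from the mean of the others of its group, as TMM-scaled CPM with axes from 0, HFD on the left, RD on the right, and the mean ± SD beside the points. RD replicate 3 (blue triangle) stands at 726 CPM for PDE10A, 54.6 CPM for PDE8A and 36.7 CPM for PDE9A.

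PDE2A, a dual enzyme that cyclic GMP stimulates, had 39.8, 37.2 and 38.4 CPM in HFD and 31.9, 30.2 and 32.6 CPM in RD. The groups lay apart with little spread in either, and the change was 0.28 ± 0.08 (adjusted p = 0.060, edgeR). It was called with upper-quartile or library-size scaling, and with a library left out the adjusted p ran from 0.050 to 0.17. Its exons share 64.3% of their length with Gm45837 on the same strand, so these counts cannot be assigned to PDE2A with certainty. The calcium- and calmodulin-dependent genes PDE1A, PDE1B and PDE1C had changes of 0.02 ± 0.16, 0.35 ± 0.14 and 0.22 ± 0.10, and PDE1C did not overlap. PDE3B, the cyclic GMP-inhibited enzyme known from insulin action in fat cells, stood at 100 ± 4.53 CPM in HFD and 99.5 ± 6.83 CPM in RD (SD, n = 3 each), with a 95% interval of its log2 change from -0.16 to 0.18. PDE3A (0.05 ± 0.15) and PDE5A (0.02 ± 0.11) lay near 0, and PDE11A was at 2.41 CPM in HFD and 1.81 CPM in RD.

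The PDE6 genes encode the enzyme of photoreceptors and stood near the detection limit. PDE6B had 1.18 ± 0.09 CPM in HFD and 2.37 ± 0.94 CPM in RD, a change of -0.998 ± 0.368 (adjusted p = 0.12), and PDE6C had 1.27 ± 0.16 CPM in HFD and 0.729 ± 0.170 CPM in RD, a change of 0.79 ± 0.36 (adjusted p = 0.20; SD, n = 3 each). PDE6G, an inhibitory subunit, averaged 0.593 CPM in HFD and 0.808 CPM in RD. PDE6A had 2 to 14 counts per HFD library and 4 to 10 per RD library, PDE6H had 1 to 5 counts per HFD library and 0 to 4 per RD library, and neither was tested. Of 11 photoreceptor and pineal markers 5 were tested and none was called by edgeR (0 at an unadjusted p under 0.05, 0 by DESeq2); CRX and PDC had 0 counts in all libraries, and the markers summed to between 22.8 and 26.9 CPM in HFD and between 24.9 and 28.1 CPM in RD. PDE6D is a carrier of prenylated proteins rather than an enzyme subunit in most tissues, and stood at 45.1 ± 0.58 CPM in HFD and 45.3 ± 4.21 CPM in RD.

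PKA is built of catalytic subunits held inactive by regulatory subunits. The catalytic genes differed little: PRKACA had 148, 152 and 149 CPM in HFD and 151, 154 and 162 CPM in RD, a log2 change of -0.06 ± 0.06 (95% interval -0.19 to 0.08), and PRKACB a change of 0.02 ± 0.08 (-0.16 to 0.21). The sign of PRKACA turned with library-size scaling (0.01). Of the 4 regulatory genes PRKAR1B was called, against 10.5% of all tested genes. PRKAR1B encodes the type I beta subunit, found mainly in nervous tissue, and lies on chromosome 5 of mm10 (139017306 to 139150001, ENSMUSG00000025855.13). It had 130, 140 and 139 CPM in HFD and 167, 163 and 205 CPM in RD. Every HFD library lay below every RD library, and RD replicate 3 was the highest. The log2 change was -0.38 ± 0.09 (0.77-fold, adjusted p = 0.028, edgeR quasi-likelihood test). The call was lost without HFD replicate 1 (0.096), HFD replicate 2 (0.090) or HFD replicate 3 (0.101), and without RD replicate 3 the change was -0.28 (adjusted p = 0.017).

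PRKAR1A, the type I alpha subunit whose loss causes Carney complex in humans, had the highest level per kb of all 74 genes, 114 in HFD and 128 in RD. It had 490, 507 and 486 CPM in HFD and 528, 532 and 600 CPM in RD. The groups did not overlap, and the change of -0.16 ± 0.06 was not called (adjusted p = 0.14). PRKAR2A had overlapping groups (65.4 ± 4.55 CPM in HFD and 65.4 ± 4.57 CPM in RD). PRKAR2B had 69.7, 61.6 and 55.5 CPM in HFD and 43.4, 65.6 and 40.9 CPM in RD, and RD replicate 2 lay in the HFD range. Its change was 0.32 ± 0.17 (adjusted p = 0.26, edgeR). The adjusted p was 0.026 without RD replicate 2 and 0.31 to 0.51 without any other library. PRKAR1B made up 19.2% to 21.04% of the summed regulatory level per kb in HFD and 22.1% to 25.1% in RD, and the ratio of catalytic to regulatory levels per kb was 0.455 to 0.477 in HFD and 0.398 to 0.446 in RD. Of the heat-stable inhibitors of the catalytic subunit, PKIG (0.00 ± 0.12) and PKIA (0.15 ± 0.10) stood at 32.4 and 28.0 CPM in HFD and 32.5 and 25.2 CPM in RD. PKIB had 5.27, 11.3 and 6.22 CPM in HFD and 7.16, 4.56 and 5.78 CPM in RD.

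The cyclic AMP response element, bound by CREB, has the letters TGACGTCA, and its shorter form TGACG on either strand is bound more weakly. Both were searched in the 250 bases before RefSeq gene starts (GRCm38.p6), where 59 of the 74 genes had a window. PRKAR1A was the only one with TGACGTCA, and 16 of the 59 (27.1%) held TGACG. Among all tested genes with a window 2.95% held TGACGTCA and 29.1% held TGACG, a match of TGACGTCA counting for both. Of the called genes, AKAP11 had 3 copies of TGACG in 1 of its 2 windows, PRKAR1B had 1 copy in 1 of its 5, and AKAP6, AKAP13 and PDE4D had none. The windows of PRKAR1A, the most abundant gene of the set (chr11:109650699-109650948, plus strand), and of AKAP11, the called gene with the most copies (chr14:78536861-78537110, minus strand), are shown with the matches in capitals. In PRKAR1A TGACGTCA begins 49 bases before the start. A match is a description of these letters and not a measured binding site.
PRKAR1A: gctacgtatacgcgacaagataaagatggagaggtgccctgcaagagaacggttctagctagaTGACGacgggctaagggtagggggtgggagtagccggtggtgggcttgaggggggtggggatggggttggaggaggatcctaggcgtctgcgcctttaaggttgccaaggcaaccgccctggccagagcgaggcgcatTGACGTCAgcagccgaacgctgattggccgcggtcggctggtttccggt
AKAP11: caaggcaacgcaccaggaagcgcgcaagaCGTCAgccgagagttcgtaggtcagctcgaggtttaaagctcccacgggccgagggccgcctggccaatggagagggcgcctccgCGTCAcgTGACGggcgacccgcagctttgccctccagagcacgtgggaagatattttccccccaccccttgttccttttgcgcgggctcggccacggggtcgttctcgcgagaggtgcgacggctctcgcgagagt

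Anchoring proteins tether PKA to places in the cell, and they held 3 of the 5 called genes. Of 15 genes 11 were tested. Among these 1 was called higher and 2 lower, against 5.87% and 4.61% of all tested genes. An unadjusted p under 0.05 (edgeR) was reached by 5 of the 11, against 26.5% of all tested genes. DESeq2 called 3, against 10.8% of all genes in that test. AKAP11, which anchors PKA together with protein phosphatase 1 and GSK3 beta (chromosome 14, 78492246 to 78536808, ENSMUSG00000022016.16), had 437, 447 and 447 CPM in HFD and 585, 617 and 576 CPM in RD. The groups lay far apart next to their spread. Its log2 change was -0.42 ± 0.06 (0.75-fold, 95% interval 0.69 to 0.82-fold; adjusted p = 0.0025, edgeR quasi-likelihood test), and it was the only gene of the set that stayed called whichever of the 6 libraries was left out (adjusted p from 0.00080 to 0.022). AKAP11 had the highest level per kb of the anchoring proteins, 40.3 in HFD and 53.8 in RD.

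AKAP13, also known as AKAP-Lbc, is an anchoring protein that activates the GTPase RhoA (chromosome 7, 75455534 to 75754609, ENSMUSG00000066406.15). It had 272, 271 and 260 CPM in HFD and 344, 429 and 343 CPM in RD, and RD replicate 2 was the highest. The change was -0.47 ± 0.09 (0.72-fold, adjusted p = 0.011, edgeR quasi-likelihood test), and it was not called without HFD replicate 2 (0.0525) or HFD replicate 3 (0.0636). AKAP6, which anchors PKA at the nuclear envelope of muscle cells and neurons (chromosome 12, 52699383 to 53155599, ENSMUSG00000061603.8), was the gene of the set with the largest called change. AKAP6 had 15.2, 13.7 and 14.9 CPM in HFD and 9.79, 7.81 and 7.57 CPM in RD. No HFD library came near the RD range, and the change was 0.80 ± 0.15 (1.74-fold, 95% interval 1.38 to 2.19-fold; adjusted p = 0.010, edgeR quasi-likelihood test). The call was lost without HFD replicate 3 (0.057). AKAP6 was a gene of low level, at 0.98 CPM per kb in HFD and 0.57 in RD.

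**Figure D5:**
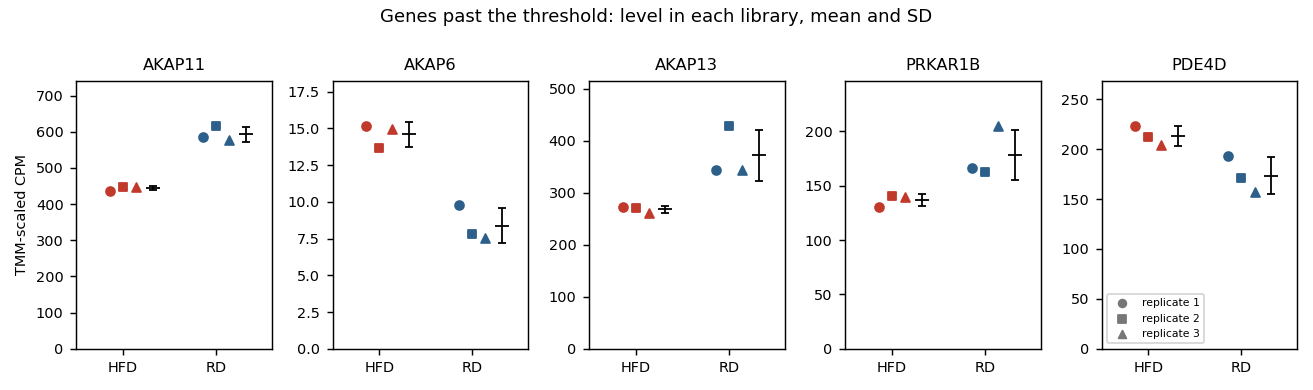
Level of the 5 called genes in each library (TMM-scaled CPM, axes from 0), ordered by p, with HFD on the left, RD on the right, a marker shape per replicate, and the mean ± SD beside the points. HFD points lie below RD points for AKAP11, AKAP13 and PRKAR1B and above them for AKAP6 and PDE4D.

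AKAP9, a scaffold of the centrosome and Golgi, had 418, 407 and 407 CPM in HFD and 453, 465 and 453 CPM in RD. The spread was small and the groups did not overlap, but the change was only -0.16 ± 0.05 (adjusted p = 0.096). AKAP8L (0.17 ± 0.06), AKAP10 (0.13 ± 0.07) and AKAP7 (0.22 ± 0.10) lay higher in HFD without overlap and were not called (adjusted p from 0.11 to 0.26). AKAP8, AKAP1, AKAP5 and AKAP12 overlapped, with changes between -0.23 and 0.05. The 4 that were not tested had few counts: AKAP3 had 7, 16 and 19 counts in HFD and 6 in each RD library, AKAP14 had 4 to 10 in HFD and 0 to 8 in RD, and AKAP2 had 3 to 7 in HFD and 6 to 8 in RD and shares 84.4% of its exonic length with Pakap. AKAP4, a sperm tail protein, had 0 counts in all 6 libraries, which allows up to 0.211 CPM in HFD and 0.191 CPM in RD (3 counts in the library with the lowest total of each group, counting error only).

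The direct cyclic AMP sensors beside PKA are EPAC1 and EPAC2, encoded by RAPGEF3 and RAPGEF4, which load the GTPase RAP1. EPAC2 is known for its part in hormone secretion from pancreatic beta cells. RAPGEF3 had 206, 195 and 193 CPM in HFD and 208, 213 and 161 CPM in RD, and its change of 0.03 ± 0.10 became -0.09 without RD replicate 3. RAPGEF4 had 186, 182 and 170 CPM in HFD and 207, 222 and 197 CPM in RD. All HFD libraries lay below the RD libraries, and the change was -0.22 ± 0.07 (adjusted p = 0.075, edgeR). The adjusted p was 0.026 without RD replicate 3 and 0.098 to 0.25 without any other library. Per kb both stood close together, at 31.3 and 26.9 in HFD and 30.7 and 31.2 in RD.

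The other RAP exchange factors, RAPGEF1, RAPGEF2, RAPGEF5 and RAPGEF6, were not called by edgeR either. Across the 6 RAP exchange factors 4 had an unadjusted p under 0.05 by edgeR (26.5% of all tested genes did). DESeq2 called 1, against 10.8% of all genes in that test. RAPGEF6 had 138, 133 and 120 CPM in HFD and 146, 159 and 164 CPM in RD, without overlap. Its change was -0.26 ± 0.08 (adjusted p = 0.057 by edgeR and 0.033 by DESeq2). The adjusted p (edgeR) was 0.039 without RD replicate 1 and 0.076 to 0.21 without any other library. RAPGEF5 (-0.33 ± 0.10, adjusted p = 0.068) and RAPGEF1 (-0.18 ± 0.07, adjusted p = 0.12) did not overlap between the groups, and RAPGEF2 (-0.06 ± 0.07) did. RAPGEF1, RAPGEF4, RAPGEF5 and RAPGEF6 kept a negative change with each of the 4 scalings. The cyclic AMP-binding membrane proteins POPDC2 and POPDC3, known from heart and skeletal muscle, averaged 1.16 and 0.907 CPM in HFD and 0.970 and 0.676 CPM in RD. POPDC3 had 7 to 17 counts in HFD and 2 to 27 in RD, and its 95% interval ran from -1.30 to 2.15 on the log2 scale.

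CREB1, the transcription factor that PKA phosphorylates, had 107, 102 and 107 CPM in HFD and 112, 115 and 121 CPM in RD. The groups lay apart by little, and the change of -0.14 ± 0.07 was not called (adjusted p = 0.20). Its relatives ATF1 (-0.14 ± 0.09) and ATF2 (-0.02 ± 0.06) and the acetyltransferase coactivator CREBBP (-0.10 ± 0.06) overlapped. CREBBP had the highest level of this family, 25.8 CPM per kb in HFD and 27.6 in RD. CREM, whose gene makes activators and the short ICER repressors, had 90.9, 65.9 and 78.8 CPM in HFD and 69.4, 50.7 and 91.7 CPM in RD. The libraries of each group were far apart, and the change was 0.15 ± 0.19 (adjusted p = 0.66; 0.38 on the log2 scale without RD replicate 3). Gene counts do not separate ICER from the other forms of CREM.

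The CRTC coactivators enter the nucleus when salt-inducible kinases no longer phosphorylate them. CRTC1, known mainly from neurons, had 174, 162 and 174 CPM in HFD and 141, 152 and 143 CPM in RD. HFD lay above RD without overlap, and the change of 0.23 ± 0.07 missed the threshold (adjusted p = 0.056). CRTC1 passed with upper-quartile scaling (0.035), library-size scaling (0.020) and the strict filter (0.049). With a library left out it never passed (adjusted p from 0.072 to 0.19, edgeR). CRTC2 (72.4 ± 5.75 CPM in HFD and 72.7 ± 4.37 CPM in RD) and CRTC3 (54.1 ± 3.89 CPM in HFD and 54.4 ± 3.47 CPM in RD; SD, n = 3 each) overlapped between the groups. The 95% interval of the log2 change ran from -0.20 to 0.19 for both.

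Genes around this machinery were read from lists chosen with earlier results of these data known. The counts of each list stand beside 10.5% called among all tested genes, 5.87% higher and 4.61% lower in HFD. Among 18 tested receptors that raise cyclic AMP through Gs, 2 rose and 1 fell (median log2 change 0.16). The orphan receptor gene GPR12 fell to 9.158, 6.996 and 7.706 CPM in HFD, against 16.9, 18.2 and 19.9 CPM in RD (-1.21 ± 0.15, adjusted p = 0.0017, edgeR quasi-likelihood test). ADCYAP1R1, the receptor of PACAP, rose to 72.4, 66.4 and 81.9 CPM in HFD, against 49.4, 53.4 and 43.3 CPM in RD (0.60 ± 0.11, adjusted p = 0.0088; 0.051 without HFD replicate 3). The corticotropin-releasing hormone receptor gene CRHR1 rose by less (0.36 ± 0.09), and its call held only without RD replicate 3, being lost without any of the other 5 libraries (adjusted p from 0.065 to 0.14). GPR12 stayed called whichever library was left out.

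Of 16 tested receptors that lower cyclic AMP through Gi, GRM2 alone was called (median log2 change 0.0026). GRM2, a metabotropic glutamate receptor, stood at 4.65, 5.64 and 6.29 CPM in HFD and 1.47, 1.43 and 1.27 CPM in RD. SSTR2, a somatostatin receptor of somatotrophs, had 1.80, 2.11 and 2.30 CPM in HFD and 3.43, 3.06 and 9.02 CPM in RD, with RD replicate 3 far above the others. Its change of -1.32 ± 0.42 was not called (adjusted p = 0.073, edgeR). The adjusted p was 0.045 without RD replicate 1 and 0.048 without RD replicate 2. Without RD replicate 3 the change was -0.65 (adjusted p = 0.21), and without an HFD library the adjusted p was 0.18 to 0.19. The dopamine receptor gene DRD2, a marker on the lactotroph list, had a change of -0.03 ± 0.11.

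Of 7 G protein alpha subunits that act on adenylyl cyclase 1 rose and 1 fell, with a median log2 change of 0.02. GNAI1, which encodes an inhibitory subunit, fell to 11.8, 20.04 and 22.6 CPM in HFD, against 39.5, 46.4 and 47.2 CPM in RD. That is a log2 change of -1.29 ± 0.20 (adjusted p = 0.0050, edgeR quasi-likelihood test), and the call did not depend on any 1 library. GNAZ rose (0.32 ± 0.09, adjusted p = 0.045) but lost its call without any 1 library other than RD replicate 1 (adjusted p from 0.0595 to 0.168).

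Among 9 tested cyclic nucleotide-gated channels and exporters CNGB1 rose (median log2 change of the list 0.33). CNGB1, a channel subunit known from rods and olfactory neurons, had 19.4, 15.8 and 19.5 CPM in HFD and 7.04, 5.40 and 4.97 CPM in RD, a change of 1.65 ± 0.17 (adjusted p = 0.0012, edgeR quasi-likelihood test). The pacemaker channel gene HCN4 missed the threshold at 0.74 ± 0.21 (adjusted p = 0.052, edgeR). The adjusted p of HCN4 was 0.029 without HFD replicate 1 and 0.065 to 0.19 without any other library. In the list of cyclic GMP synthesis and kinases 2 of 10 tested genes rose (median log2 change 0.14). GUCY2F, a guanylyl cyclase of photoreceptors, had 15.3, 11.6 and 14.9 CPM in HFD and 6.179, 2.995 and 3.352 CPM in RD (1.74 ± 0.26, adjusted p = 0.0045). NOS1 rose by 1.15 ± 0.29 on the log2 scale (adjusted p = 0.036), and its call was lost without RD replicate 2, RD replicate 3, HFD replicate 2 or HFD replicate 3 (0.072 to 0.15). CNGB1 and GUCY2F stayed called whichever library was left out. The photoreceptor markers given above were not called, and their part in these changes was not tested.

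SIK1 was the only called gene of a list with 13 tested genes (median log2 change 0.04). The list holds salt-inducible kinases, phosphatase genes and others such as EP300 and MARK2. SIK1 is also on the list of CREB target genes below. SIK1, itself induced by CREB and an inhibitor of the CRTC proteins, had 200, 123 and 175 CPM in HFD and 103, 46.0 and 51.0 CPM in RD. The change was 1.31 ± 0.28 (adjusted p = 0.018; 0.066 without HFD replicate 1 and 0.083 without HFD replicate 3).

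Of 22 tested CREB target genes known from other cells 8 rose (SIK1, GEM, CGA, PER1, EGR1, JUNB, NR4A3 and ATF3), 2 fell (VGF and PER2) and 12 did not pass, against 10.5% called among all tested genes; the median log2 change was 0.80. By DESeq2, JUNB (adjusted p = 0.066) and NR4A3 (0.072) were not called. The other named genes of this list were called by DESeq2 as well, EGR1 at 0.046. The number of edgeR calls varied with the library left out. Of the 10 calls 1 was kept without HFD replicate 3 (GEM) and 4 without HFD replicate 1. Leaving out any other library kept 7 to 10. The count over all genes fell as well, from 1453 to 431 without HFD replicate 3 and to 701 without HFD replicate 1. The log2 changes of all 10 kept their direction without HFD replicate 3 (ATF3 1.12 against 1.345, VGF -1.88 against -1.97). The small GTPase gene GEM had 35.0, 33.1 and 32.5 CPM in HFD and 20.7, 10.6 and 14.9 CPM in RD (1.12 ± 0.20, adjusted p = 0.0081), and it stayed called whichever library was left out. CGA, the shared alpha subunit of the glycoprotein hormones, rose by 0.37 ± 0.07 on the log2 scale, and PER1, a clock gene, by 0.79 ± 0.16. VGF, a granule peptide precursor, fell by 1.97 ± 0.34. It had 8.12, 8.90 and 6.89 CPM in HFD and 18.8, 23.2 and 51.55 CPM in RD. Without RD replicate 3 its log2 change was -1.40. PER2 had 98.5, 99.5 and 170.5 CPM in RD, and its log2 change of -1.04 was -0.73 without RD replicate 3. Without HFD replicate 3 the adjusted p was 0.055 for CGA and VGF, 0.070 for PER1, 0.083 for SIK1, 0.102 for PER2, 0.106 for NR4A3, 0.107 for JUNB, 0.115 for EGR1 and 0.130 for ATF3. CGA was also lost without HFD replicate 2 (0.0525) and PER1 without HFD replicate 1 (0.051). Many genes of this list also answer to signals other than cyclic AMP, and no test was made of the list as a whole.

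Markers of other cell types in the gland were summed for each library. The somatotroph list (3 genes, 2 of them called lower) came to between 37000 and 40000 CPM in HFD and between 59600 and 72400 CPM in RD, and the thyrotroph list (3 genes, 2 of them called higher) to between 440 and 474 CPM in HFD and between 227 and 313 CPM in RD. The lactotroph list (3 genes, PRL called lower) came to between 10000 and 12600 CPM in HFD and between 14100 and 15600 CPM in RD. All 4 gonadotroph markers were called, 3 lower and NR5A1 higher, with sums of 1020 to 1110 CPM in HFD and 1350 to 1510 CPM in RD. Of 4 neuron markers TUBB3 was called higher (1.03 ± 0.21), with sums of 558 to 649 CPM in HFD and 568 to 600 CPM in RD. Of 5 endothelial markers none was called by edgeR (1 at an unadjusted p under 0.05, 0 by DESeq2), with sums of 340 to 360 CPM in HFD and 322 to 340 CPM in RD. Of 5 mural markers CSPG4 was called higher, with sums of 290 to 327 CPM in HFD and 288 to 299 CPM in RD. The melanotroph factor PAX7 varied within groups, at 39.3, 98.0 and 93.2 CPM in HFD and 103, 55.0 and 60.6 CPM in RD. Among these marker calls, those of GH1, POU1F1, TSHB and GNRHR were kept whichever library was left out; PRL, TRHR, LHB, FSHB, NR5A1, TUBB3 and CSPG4 each lost theirs without at least 1 library, and LHB without any of the 6. The part of these markers in the changes of the cyclic AMP genes was not tested.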

How the data were processed

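Polyadenylated pituitary RNA was measured in 3 HFD and 3 RD libraries. The authors deposited whole-number read counts per gene symbol, not normalized. Per the submitters' processing notes the build was mm10; aligner and counter: not given in the sources used here. Among counts of 1 to 10, 64.0% to 67.0% were even, as if both mates of a pair were counted. Strand use is unknown.

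The test was edgeR 4.0.16 under R 4.3.3 (quasi-likelihood test, TMM, minimum count 10, minimum total 15, intercept and diet, two-sided, Benjamini-Hochberg adjustment over 13873 rows, threshold 0.05). Standard errors are the log2 change divided by the root of F, and 95% intervals use its degrees of freedom. Exonic lengths and coordinates came from GENCODE M21, which matched all 74 genes. Replicate pairs differed by 4.48 to 21.1 in chi-square per degree of freedom, so each library counted as 1 sample. The members and lists were chosen with earlier results of these data known. Genes named are those called, the highest per length in each family, the 4 uncalled with the smallest p, and up to 4 per pathway list; others were chosen after their values were seen. Alternatives were DESeq2 1.42.0, limma-voom (limma 3.58.1), other scalings and filters, halved counts, a replicate block and each library left out. The fit was tested on simulated data.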

Additional observations from a re-analysis of the deposited data

How the results depend on the processing

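The count of called genes of the set was 5. It was 8 with upper-quartile scaling, 9 with library size only and 8 by DESeq2. In these settings 10.6%, 11.1% and 10.8% of all tested genes were called. The other alternatives that keep all libraries gave between 4 and 6, against 5.82% to 11.3% of all tested genes. With a library left out the count was between 1 and 8, against 3.08% to 10.9% of all tested genes. The count over all genes was 1453; it was 808 with the replicate block and between 431 and 1523 with a library left out. No pairing by replicate number was seen. Deviations of same-numbered HFD and RD libraries correlated at -0.127, 0.00371 and -0.0972. HFD replicate 1 correlated best with RD replicate 3 (0.106) and HFD replicate 3 with RD replicate 1 (0.121). These deviations are from means of 3 libraries per group, so the check cannot exclude a pairing or a shared batch. With the replicate block the set had 1 higher and 3 lower called genes, and PDE4D had an adjusted p of 0.055.

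AKAP11, AKAP6, AKAP13, PRKAR1B and PDE4D kept their direction under all 15 alternatives, and AKAP11 its call. Genes near 0 changed sign: CRTC2 stood at 0.027 with upper-quartile and 0.063 with library-size scaling and between -0.070 and 0.044 with a library left out, PKIG at 0.025, 0.061, 0.0041 (limma-voom) and 0.00073 (replicate block) and between -0.11 and 0.077 with a library left out, and PRKACA at 0.012 with library size only. With a library left out, POPDC2 ranged from -0.22 to 0.63 and RAPGEF3 from -0.094 to 0.095. The share of higher calls over all genes was 72.5% with library size only, against 56.0%. The causes were not tested. Of the intervals that passed 2-fold, those of ADCY8, ADCY10 and PDE6G belonged to genes at about 1 CPM, where few counts limit precision, and that of PDE10A to a gene at 246 to 726 CPM.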
